A study of Mus musculus with 8 samples.

Results

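The expression of the glucocorticoid receptor gene Nr3c1 and of 9 genes that glucocorticoids are known to induce (Tsc22d3, Fkbp5, Zbtb16, Sgk1, Dusp1, Klf9, Pdk4, Cdkn1a and Nfkbia) was examined in mouse lung. These 10 genes were taken by their Entrez identifiers from a count table of 23469 genes, and all 10 were found and had counts in all 8 libraries. The set was drawn up because Tsc22d3 was higher in transgenic than in wild type lungs under both treatments, so that the genotype differences below are given as a description. They were fitted like the others, but their calls are no evidence and no p is given for them.

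Lungs came from C57BL/6 wild type mice (WT) and from DDAH1-transgenic mice (TG), which carry a transgene for dimethylarginine dimethylaminohydrolase 1, an enzyme that breaks down the nitric oxide synthase inhibitor asymmetric dimethylarginine. Mice of each genotype received PBS or 100 µg of house dust mite extract (HDM) in 50 µl into the trachea, 3 times a week for 3 weeks, and lungs were taken 24 hours after the last challenge. The 4 groups are thus wild type with PBS, wild type with HDM, DDAH1-transgenic with PBS and DDAH1-transgenic with HDM. For each group a single RNA pool of 4 mice was made, from which 2 libraries were sequenced. The SD and the p-values therefore measure the spread between libraries of a pool and hold no variation between mice. The promoter that drives the transgene, the ages of the pooled mice and the time of day of harvest are not given in the sources used here.

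Cortisol and, in mice, corticosterone cross the cell membrane and bind the glucocorticoid receptor, which the chaperone Hsp90 and the immunophilin Fkbp5 hold in the cytoplasm. The bound receptor enters the nucleus, sits as a dimer on palindromic glucocorticoid response elements and raises transcription nearby. In the lung its targets include genes that restrain inflammatory signaling, which is the basis of inhaled steroid treatment of asthma. Most of the genes also answer to other signals, such as stress kinases, cyclic AMP, p53 or NF-κB.

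To show what the upstream sequence of these genes holds, the 250 bases before each annotated start were searched on both strands for the glucocorticoid response element (the half-sites GNACA and TGTNC with any NNN between them), the NF-κB motif (GGGNN followed directly by TTTCC) and the cyclic AMP response element (TGACGTCA). Sequences are from RefSeq (mouse build GRCm38.p6), which gave 16 windows for 8 of the 10 genes. No window was in the table for Nr3c1 and Zbtb16. Of all 32851 windows in that table, which also take in 50 bases after the start, 0.475% hold the response element, 1.63% the NF-κB motif and 1.79% the cyclic AMP response element. These motifs do not overlap each other in the windows printed here. A match is a description of the letters and not a measured binding site. Each sequence is given 5′ to 3′ on the strand of the gene, with the motif in capitals.

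Among the genes of the set, only a window of Sgk1 holds the full response element. It lies 188 bases before the start at position 21993890, at chr10:21993640-21993889 on the plus strand, within an intron of a longer Sgk1 transcript and outside annotated exons.
Sgk1: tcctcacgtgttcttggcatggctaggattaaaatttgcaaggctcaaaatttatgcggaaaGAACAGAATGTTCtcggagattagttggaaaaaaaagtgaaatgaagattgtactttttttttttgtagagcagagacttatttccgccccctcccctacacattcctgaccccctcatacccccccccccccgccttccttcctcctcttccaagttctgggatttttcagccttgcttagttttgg
The window of Nfkbia, at chr12:55492648-55492897 on the minus strand and outside annotated genes, holds the NF-κB motif (read on the other strand) 29 bases before the start, the site type through which NF-κB induces its own inhibitor.
Nfkbia: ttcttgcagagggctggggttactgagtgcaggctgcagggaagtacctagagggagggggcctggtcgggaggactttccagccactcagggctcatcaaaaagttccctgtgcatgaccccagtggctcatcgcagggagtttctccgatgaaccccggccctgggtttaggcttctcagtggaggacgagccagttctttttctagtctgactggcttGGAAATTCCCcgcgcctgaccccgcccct
One of 3 windows of Tsc22d3 lies in an intron and outside annotated exons, at chrX:140548572-140548821 on the minus strand, and is shown because Tsc22d3 is the gene the set was built on. None of its 3 windows holds any of these 3 motifs, which says only that these letters are not in them.
Tsc22d3: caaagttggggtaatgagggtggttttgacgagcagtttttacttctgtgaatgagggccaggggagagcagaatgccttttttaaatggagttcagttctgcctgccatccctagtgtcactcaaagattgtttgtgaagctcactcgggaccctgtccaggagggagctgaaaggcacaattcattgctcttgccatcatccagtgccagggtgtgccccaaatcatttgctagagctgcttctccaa
The Dusp1 window overlaps an annotated exon of Dusp1 and holds the cyclic AMP response element 143 bases before the start, shown with its flanks at chr17:26508597-26508626 on the minus strand.
Dusp1: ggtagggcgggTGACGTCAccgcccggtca
Of the further glucocorticoid-induced genes below, only Fam107a, which passed a test, was searched, so that nothing is said of the others. Its window at chr14:8317608-8317857 holds none of these motifs. A full response element lies at chr14:8309876-8309905 on the minus strand, in a window that overlaps an annotated exon of Fam107a.
Fam107a: ggtggcttGGACATGGTGTTCtgagtctcg

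The libraries held 5694928 to 11929374 counts, and 3 counts, taken as the limit of detection, stood for 0.232 to 0.449 CPM, the count of a gene scaled to a fixed library size by TMM factors. The smallest was the first TG HDM library, at 5694928 counts, where every other library had at least 9633928. Ddah1, the gene of the transgene, had a mean of 41.0 ± 9.50 CPM in WT PBS, 43.9 ± 1.15 in WT HDM, 65.4 ± 16.4 in TG PBS and 34.1 ± 1.08 in TG HDM (SD, n = 2 libraries), so that the libraries labelled TG HDM lay below the WT HDM libraries and went against the direction of their label. Xist, expressed from the inactive X chromosome, had 11.3 to 20.8 CPM in the PBS libraries and 2048 to 3040 CPM in the HDM libraries, while Ddx3y on the Y chromosome had 58.7 to 69.0 CPM in the PBS libraries and 2 to 3 counts in each HDM library. The treatment and the sex of the mice therefore cannot be told apart in either genotype. Lung marker genes summed to 39688 to 69695 CPM in the PBS libraries and to 18480 to 26597 CPM in the HDM libraries. This fall was mainly that of the lung marker Scgb1a1, at 27099 to 51010 CPM with PBS and 8944 to 12611 CPM with HDM. Sums of marker lists of other tissues are given beside the counts of each comparison. In these bulk samples, fewer cells of a type and less RNA per cell cannot be told apart.

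Tsc22d3 encodes GILZ, a leucine zipper protein induced by glucocorticoids that binds NF-κB and AP-1 and restrains inflammatory transcription. The gene (Entrez 14605) lies on the X chromosome at chrX:140539528-140600522 (GRCm38.p6). Its level was 49.1 and 43.1 CPM in the 2 WT PBS libraries, 39.6 and 26.5 CPM in WT HDM, 92.3 and 109 CPM in TG PBS, and 119.8 and 90.4 CPM in TG HDM. The 4 TG libraries all lay above the 4 WT libraries, and the WT PBS libraries lay above the WT HDM libraries, while the 2 TG groups overlapped.

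In the PBS groups Tsc22d3 was 1.12 ± 0.20 higher in TG on the log2 scale (SE), and in the HDM groups 1.71 ± 0.29 higher. Differences on the log2 scale are given ± SE throughout, and levels ± SD. These are the differences that chose the set. They ranged from 1.00 to 1.24 with PBS and from 1.46 to 2.01 with HDM over 11 other settings and left-out libraries. In 20.0% of all genes tested in the PBS groups, and in 23.2% in the HDM groups, both TG libraries also lay above both WT libraries. The HDM differences were small for this gene. They did not themselves choose the set, but they use the same libraries, so that their p-values are not independent of the choice. Tsc22d3 differed by −0.48 ± 0.27 between WT HDM and WT PBS (adjusted p = 0.366, edgeR) and by 0.09 ± 0.24 between TG HDM and TG PBS (adjusted p = 0.866), and neither passed the test.

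**Figure D1:**
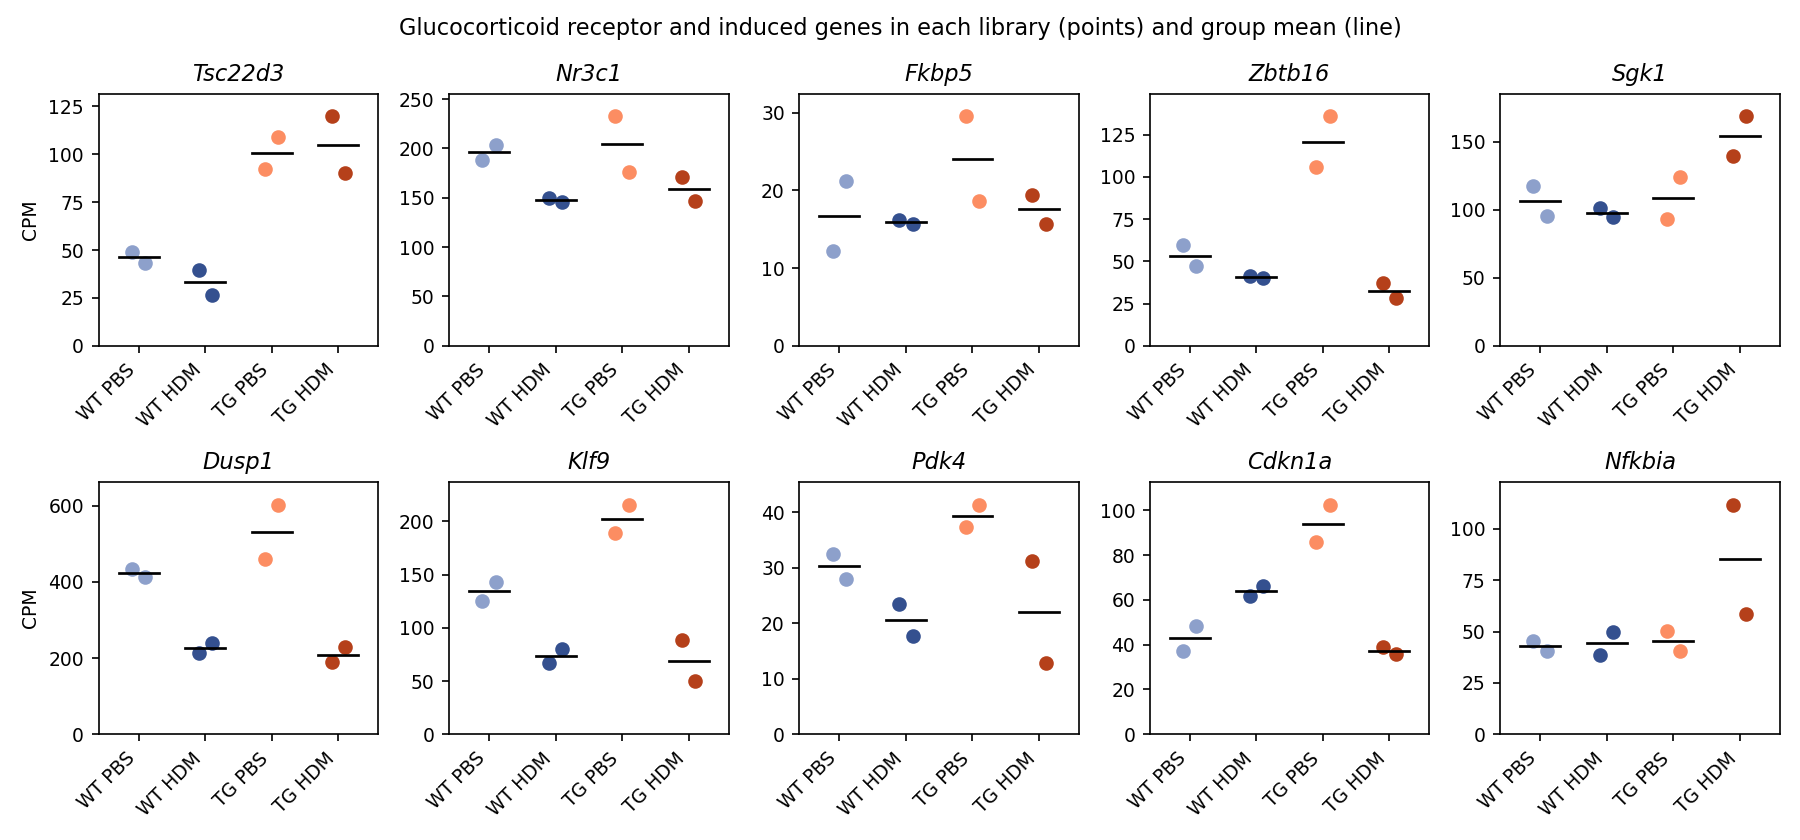
Level of each of the 10 genes in CPM (scaled counts, linear axis from 0) in the 2 libraries of each group (points) with the group mean (line). Tsc22d3 lies at 90.4 to 119.8 CPM in the TG libraries and at 26.5 to 49.1 CPM in the WT libraries, and Zbtb16 and Cdkn1a are highest in TG PBS.

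Nr3c1, the receptor itself, lies on chromosome 18 and had 189 and 204 CPM in WT PBS, 149.6 and 146 CPM in WT HDM, 233 and 176 CPM in TG PBS, and 171 and 147 CPM in TG HDM. The TG libraries overlapped the WT libraries under both treatments, with genotype differences of 0.05 ± 0.16 with PBS and 0.15 ± 0.20 with HDM on the log2 scale. The 4 HDM libraries lay below the 4 PBS libraries. The HDM difference was −0.41 ± 0.15 in WT (adjusted p = 0.123, edgeR) and −0.34 ± 0.21 in TG (adjusted p = 0.348), and neither passed the test.

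Fkbp5, the Hsp90 co-chaperone that lowers the receptor's affinity for hormone and closes a feedback loop, was the lowest of the 10 genes in CPM. It lies at chr17:28398753-28486149. It had 12.2 and 21.2 CPM in WT PBS, 16.2 and 15.7 CPM in WT HDM, 29.5 and 18.6 CPM in TG PBS, and 19.5 and 15.6 CPM in TG HDM. All neighbours in the order of the groups overlapped. The genotype differences were 0.52 ± 0.38 with PBS and 0.18 ± 0.41 with HDM on the log2 scale. The HDM differences were −0.07 ± 0.40 in WT (adjusted p = 0.95, edgeR) and −0.43 ± 0.40 in TG (adjusted p = 0.539), each smaller than or close to its SE.

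Dusp1, a phosphatase that switches off the MAP kinases p38 and JNK, lies at chr17:26505591-26508472, had the highest level of the 10 genes per length, and fell with HDM in both genotypes. It had 433 and 412 CPM in WT PBS, 214 and 239 CPM in WT HDM, 459 and 602 CPM in TG PBS, and 188 and 229 CPM in TG HDM. Every HDM library lay below every PBS library, and the 2 HDM groups overlapped. The HDM difference was −0.90 ± 0.13 on the log2 scale in WT (adjusted p = 0.000569, edgeR) and −1.33 ± 0.20 in TG (adjusted p = 0.00126). The call in WT was kept without each library in turn. The difference between these 2 HDM effects was −0.45 (adjusted p = 0.402) and did not pass the test.

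Nfkbia encodes IκBα, which holds NF-κB in the cytoplasm and is induced by both glucocorticoids and NF-κB. The gene lies at chr12:55489409-55492647. It had 45.2 and 40.6 CPM in WT PBS, 38.6 and 49.8 CPM in WT HDM, 50.1 and 40.8 CPM in TG PBS, and 112 and 58.7 CPM in TG HDM. Both TG HDM libraries lay above all 6 other libraries, but they were nearly as far from each other as the lower of them was from 0. The difference between TG HDM and WT HDM was 0.99 ± 0.33 on the log2 scale, and that with PBS was 0.07 ± 0.25. The HDM difference in TG was 0.93 ± 0.33 (adjusted p = 0.0801, edgeR) and in WT 0.04 ± 0.25 (adjusted p = 0.954), and neither passed the test. The value in TG was 1.31 without the second TG HDM library (adjusted p = 0.00137) and 0.37 without the first (adjusted p = 0.548), and it passed in 3 of 7 other settings, with adjusted p-values from 0.0121 to 0.432 over the 7.

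Zbtb16 encodes PLZF, a zinc finger transcription factor that is also a marker of innate-like T cells, and lies at chr9:48651797-48836225. It had 59.6 and 47.3 CPM in WT PBS, 41.1 and 40.1 CPM in WT HDM, 106 and 136 CPM in TG PBS, and 37.0 and 28.2 CPM in TG HDM. The 4 groups did not overlap, with TG PBS the highest and TG HDM the lowest. The genotype difference was 1.17 ± 0.20 on the log2 scale with PBS and −0.28 ± 0.31 with HDM. With HDM, Zbtb16 fell by 1.87 on the log2 scale in TG (SE 0.27, adjusted p = 0.00106, edgeR), and the difference of −0.40 ± 0.24 in WT did not pass the test (adjusted p = 0.394). The test in TG uses the TG PBS libraries in which Zbtb16 was high, so that its call is not independent of the choice of the set.

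Klf9, a Krüppel-like transcription factor and a widely shared target of the receptor, lies at chr19:23141226-23168129 and fell with HDM in both genotypes. It had 125 and 143 CPM in WT PBS, 66.6 and 80.4 CPM in WT HDM, 189 and 216 CPM in TG PBS, and 88.5 and 50.0 CPM in TG HDM. The PBS libraries of both genotypes lay above all HDM libraries, and the TG PBS libraries lay above the WT PBS libraries, with a difference of 0.58 ± 0.15 on the log2 scale. With HDM the genotype difference was −0.05 ± 0.30. The HDM difference was −0.87 ± 0.18 in WT (adjusted p = 0.00914, edgeR) and −1.52 ± 0.28 in TG (adjusted p = 0.00387). Without the second WT PBS library the difference in WT missed the threshold, with an adjusted p of 0.0853.

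Sgk1, a kinase that raises sodium uptake through the epithelial sodium channel, lies at chr10:21882184-21999903. It had 117 and 95.1 CPM in WT PBS, 101 and 94.5 CPM in WT HDM, 93.0 and 124 CPM in TG PBS, and 139.7 and 168 CPM in TG HDM. The TG HDM libraries lay above all others, and the other 3 groups overlapped. The genotype difference was 0.02 ± 0.19 on the log2 scale with PBS and 0.69 ± 0.21 with HDM. The HDM difference was −0.12 ± 0.18 in WT (adjusted p = 0.786, edgeR) and 0.53 ± 0.23 in TG (adjusted p = 0.151), and neither passed the test.

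Pdk4, which turns off pyruvate dehydrogenase and spares glucose in fasting, lies at chr6:5483351-5496278. It had 32.6 and 28.0 CPM in WT PBS, 23.5 and 17.7 CPM in WT HDM, 37.4 and 41.3 CPM in TG PBS, and 31.1 and 12.9 CPM in TG HDM. The PBS groups did not overlap, while the 2 TG HDM libraries differed by more than the 2 libraries of any other group. The genotype differences were 0.37 ± 0.27 with PBS and 0.13 ± 0.46 with HDM on the log2 scale. The HDM differences were −0.56 ± 0.32 in WT (adjusted p = 0.363, edgeR) and −0.82 ± 0.42 in TG (adjusted p = 0.229), and neither passed the test. The value in TG rested on the TG HDM libraries, being −1.61 without the first (adjusted p = 0.00898, past the threshold) and −0.32 without the second (adjusted p = 0.611).

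Cdkn1a encodes p21, an inhibitor of cyclin-dependent kinases that p53 and glucocorticoids induce, and lies at chr17:29090979-29100722. It had 37.2 and 48.3 CPM in WT PBS, 61.7 and 66.3 CPM in WT HDM, 85.6 and 102 CPM in TG PBS, and 38.8 and 35.7 CPM in TG HDM. TG PBS was the highest group and WT HDM came next, and the WT PBS and TG HDM libraries overlapped. The genotype difference was 1.12 ± 0.22 on the log2 scale with PBS and −0.74 ± 0.27 with HDM, so that it changed sign between the treatments. With HDM, Cdkn1a fell by 1.31 on the log2 scale in TG (SE 0.26, adjusted p = 0.00634, edgeR), and the difference of 0.58 ± 0.23 in WT did not pass the test (adjusted p = 0.175). As for Zbtb16, the call in TG rests on TG PBS libraries in which the gene was high and is not independent of the choice. Of the 50-base stretches of its transcripts, 8.49% also occur in other genes, against at most 1.4% for the other 9 genes.

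**Figure D2:**
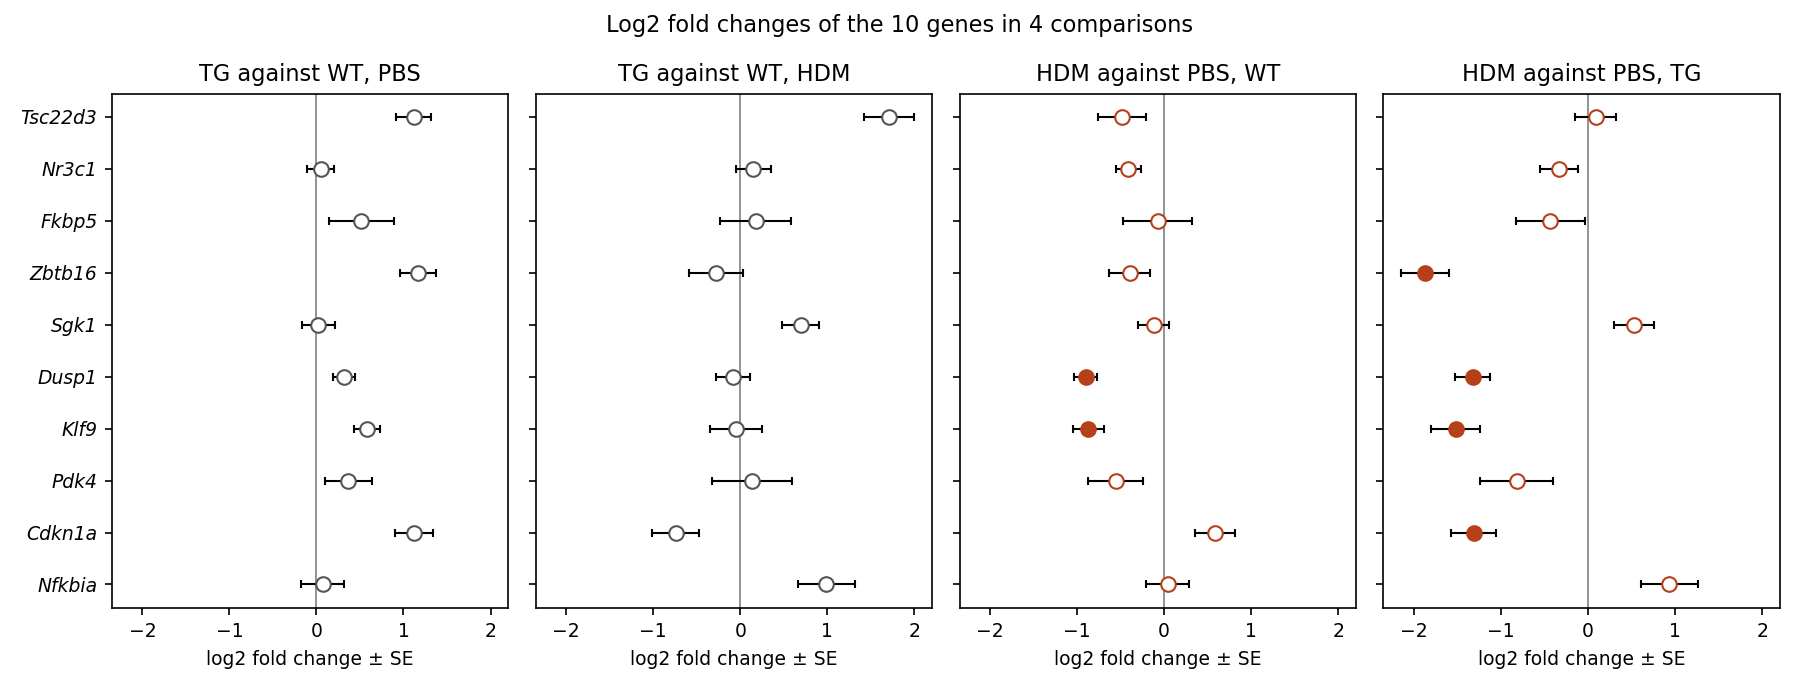
Log2 fold change (point) with its standard error (bar) of the 10 genes in 4 comparisons. Filled points in the HDM comparisons have an adjusted p under 0.05, which are Dusp1 and Klf9 in WT and Zbtb16, Dusp1, Klf9 and Cdkn1a in TG. Open grey points in the genotype comparisons are a description, with calls not marked.

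The 10 genes were then counted together in each comparison. Between TG PBS and WT PBS, all 10 differences were above 0, with a median of 0.44 on the log2 scale against 0.00 over all genes, and Tsc22d3, Zbtb16 and Cdkn1a were called higher. The share of all genes called was 0.657% in either direction and 0.281% as higher, and nothing is read from the count because the set was chosen on this contrast. Without the second WT PBS library 1 of the 10 was called, and without the first TG PBS library 5 were. The skeletal muscle marker genes moved in the same comparison, summing to 43.0 and 46.5 CPM in WT PBS against 278 and 295 CPM in TG PBS, with all 10 markers higher. Thymocyte markers summed to 107 and 108 CPM in WT PBS and to 30.6 and 35.2 CPM in TG PBS, with Dntt at 0 in both TG PBS libraries. Neutrophil markers summed to 437 and 418 CPM in WT PBS and to 182 and 208 CPM in TG PBS. Heart muscle markers summed to 285 and 326 CPM in WT PBS and to 138 and 166 CPM in TG PBS, and adipose markers to 67.7 and 78.8 CPM and to 23.2 and 31.5 CPM, and the part of these tissues and cells in the differences of the 10 genes was not tested.

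Between TG HDM and WT HDM, 6 of the 10 genes were above 0 and 4 below it, with a median of 0.14 against 0.01 over all genes. The 1 gene called was Tsc22d3, on whose difference here the set was chosen, so that its call says nothing more. Of all genes, 2.44% were called in either direction and 1.84% as higher. Without either the first or the second WT HDM library edgeR called 0 of the 10, and without either TG HDM library it called 2. Skeletal muscle markers summed to 219 and 229 CPM in WT HDM and to 146 and 162 CPM in TG HDM, with 8 of 10 lower and 2 higher. Thymocyte markers summed to 43.2 and 68.8 CPM in WT HDM and to 45.5 and 50.1 CPM in TG HDM and overlapped, with Rag1 and Dntt at 0 in WT HDM. Heart muscle markers summed to 205 and 192 CPM in WT HDM and to 78.2 and 95.1 CPM in TG HDM, and the part of these tissues was not tested.

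Between WT HDM and WT PBS, Dusp1 and Klf9 fell and the other 8 genes did not pass the test. The median of the 10 genes was −0.40 on the log2 scale against 0.02 over all genes, with 2 genes above 0 and 8 below, and 6.74% of all genes were called in either direction and 2.30% as lower. Skeletal muscle markers summed to 43.0 and 46.5 CPM in WT PBS and to 219 and 229 CPM in WT HDM, with 9 of 10 called higher. Neutrophil markers summed to 437 and 418 CPM in WT PBS and to 202 and 214 CPM in WT HDM, and thymocyte markers to 107 and 108 CPM and to 43.2 and 68.8 CPM, with 4 genes of each list called lower. T cell markers summed to 81.3 and 71.2 CPM in WT PBS and to 136 and 127 CPM in WT HDM, and none of these 6 genes was called by edgeR, with 3 at an unadjusted p under 0.05. Of the lung markers Scgb1a1, made by club cells, had 27099 and 34158 CPM in WT PBS and 10227 and 12115 CPM in WT HDM, while the median of the 6 lung markers was −0.23 on the log2 scale. Immediate early genes, which a stimulus induces within minutes and which share inducers with Dusp1, summed to 359 and 387 CPM in WT PBS and to 267 and 294 CPM in WT HDM. Of these 8 genes, 5 were lower and 3 higher. Clock genes, which also include targets of the receptor, summed to 480 and 497 CPM in WT PBS and to 356 and 350 CPM in WT HDM. The part of tissue composition, handling and time of harvest in these differences was not tested.

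Between TG HDM and TG PBS, Zbtb16, Dusp1, Klf9 and Cdkn1a fell and the other 6 genes did not pass the test, with a median of −0.63 against 0.03 over all genes. All 4 lay higher in TG PBS than in WT PBS, a contrast that chose the set, so that these calls are not independent of the choice. The share of all genes called was 13.8% in either direction and 5.35% as lower. Without the second TG PBS library none of these 4 genes was called, and without the first TG PBS library 2 were, Zbtb16 and Dusp1. T cell markers summed to 52.6 and 62.2 CPM in TG PBS and to 195 and 145 CPM in TG HDM, with all 6 markers higher. Skeletal muscle markers summed to 278 and 295 CPM in TG PBS and to 146 and 162 CPM in TG HDM, with 7 of 10 lower and 3 higher. Lung markers summed to 47277 and 69695 CPM in TG PBS and to 18480 and 26597 CPM in TG HDM, with 3 of 6 called lower. The fall of this sum was mainly that of Scgb1a1, from 33030 and 51010 CPM to 8944 and 12611 CPM. By log2 fold change 5 of the lung markers were lower and 1 was higher. Clock gene sums were 504 and 578 CPM in TG PBS and 423 and 397 CPM in TG HDM, but only 6 of 11 clock genes were lower and 5 were higher. The part of these changes in the fall of Zbtb16, Dusp1, Klf9 and Cdkn1a was not tested.

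Whether the HDM difference was unlike in the 2 genotypes was tested as the difference of the HDM effects over all 8 libraries. Here too, effects of HDM, sex and pool cannot be told apart. Cdkn1a and Zbtb16 passed this test, both with a more negative HDM effect in TG than in WT. The tested value is in effect the genotype difference with HDM less that with PBS, and those differences are a description here. Both genes were high in TG PBS, so that their calls are not independent of the choice of the set. The difference was −1.92 ± 0.34 on the log2 scale for Cdkn1a (adjusted p = 0.0049, edgeR) and −1.50 ± 0.35 for Zbtb16 (adjusted p = 0.0334). Of all genes, 1.76% were called in either direction and 0.706% as more negative. Cdkn1a remained past the threshold without each of the 8 libraries in turn. Zbtb16 lost the call in 5 of these 8 fits, which were those without the first or second WT PBS library, the first or second WT HDM library or the second TG PBS library. In the same test skeletal muscle markers were called with the same sign for 8 of 10 genes, with a median of −5.61. For Klf9 the difference was −0.68 (adjusted p = 0.349), for Sgk1 0.62 (adjusted p = 0.326) and for Nfkbia 0.86 (adjusted p = 0.348), which did not pass the test. Tsc22d3 had a difference of 0.54 ± 0.35, given without a test because both of its parts chose the set.

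**Figure D3:**
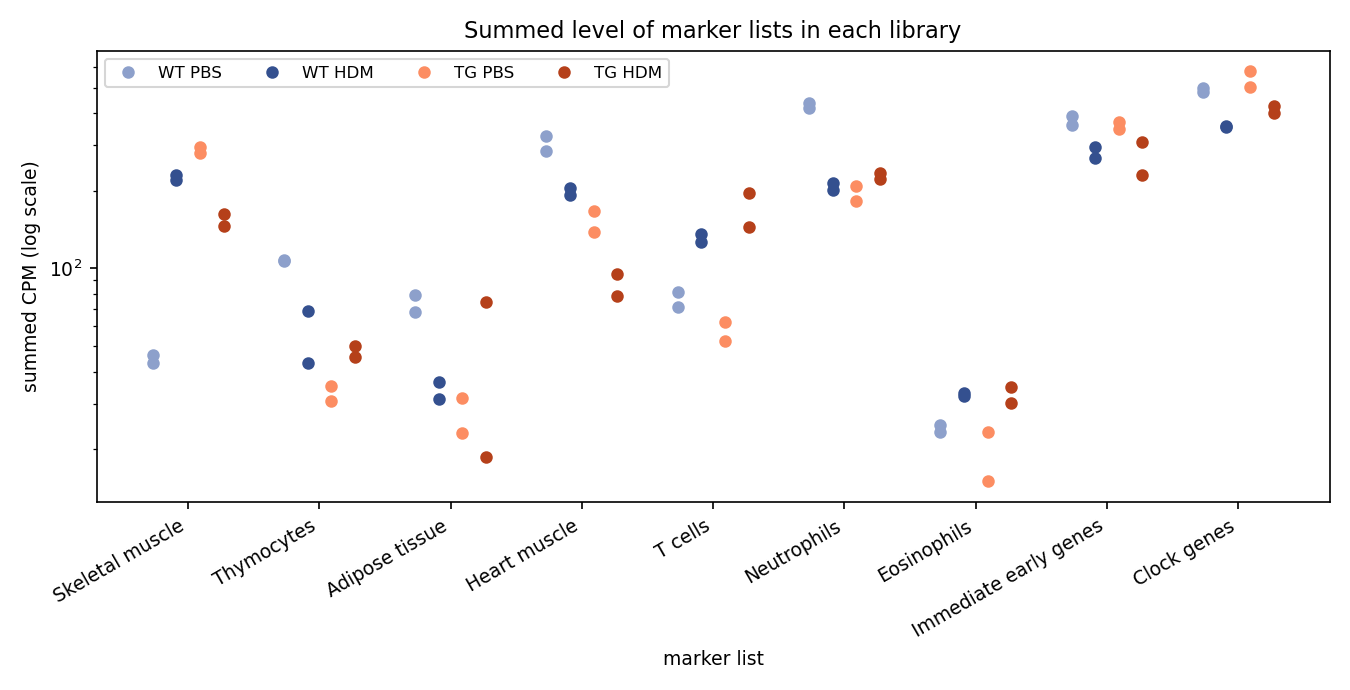
Summed level of each marker list in each library, in CPM on a log axis, with 1 point per library colored by group. Skeletal muscle markers lie at 43.0 and 46.5 CPM in WT PBS and at 146 to 295 CPM in the other groups, and T cell markers are higher with HDM than with PBS in both genotypes.

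To see whether other genes known to be induced by glucocorticoids moved like these, 30 further ones were examined. Between TG and WT under PBS, 18 of the 30 were above 0 and 12 below, with a median of 0.20 on the log2 scale, and Angptl4 and Errfi1 were called higher, where 0.281% of all genes were. Angptl4, an inhibitor of lipoprotein lipase, had 32.5 and 45.3 CPM in WT PBS and 90.1 and 119.6 CPM in TG PBS, a difference of 1.42 ± 0.23 on the log2 scale. Errfi1, a feedback inhibitor of the EGF receptor, had 186 and 179 CPM in WT PBS and 329 and 325 CPM in TG PBS, a difference of 0.83 ± 0.13. Under HDM 20 of the 30 were above 0 and 10 below, with a median of 0.32. None of the 30 was called by edgeR under HDM, where 11 had an unadjusted p under 0.05 and DESeq2 called 2. Of all genes, 2.44% were called by edgeR under HDM and 16.2% had an unadjusted p under 0.05. These counts moved when a single library was left out, as given at the end. Under HDM the count over all genes moved as well. Like those of the 10 genes, these genotype values are a description.

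With HDM in WT, 4 of 29 genes tested passed, with 1 higher and 3 lower and a median of −0.27 against 0.02 over all genes, of which 4.44% were called higher and 2.30% lower. The period gene Per1 fell by 0.78 on the log2 scale (adjusted p = 0.0387, edgeR), the actin-binding stress gene Fam107a by 2.00 (adjusted p = 0.0164) and Crispld2, a secreted protein that binds lipopolysaccharide, by 1.28 (adjusted p = 0.0119). Anxa1, which encodes the anti-inflammatory annexin A1, rose from 144 and 126 CPM to 232 and 246 CPM, a difference of 0.82 (adjusted p = 0.00368). Fam107a had 48.3 and 19.4 CPM in WT PBS and 10.7 and 6.13 CPM in WT HDM. Without the first WT PBS library 1 of the 29 passed, and without the second WT HDM library 7 did.

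With HDM in TG, 8 of 29 passed, with 1 higher and 7 lower and a median of −0.50 against 0.03 over all genes, of which 8.43% were called higher and 5.35% lower. Anxa1 again rose, by 0.77 (adjusted p = 0.0227, edgeR), and Per1 fell by 1.05 (adjusted p = 0.0235). Crispld2 fell the most, from 54.0 and 64.6 CPM to 10.8 and 16.8 CPM, by 2.07 on the log2 scale (adjusted p = 0.00208). Angptl4 fell by 1.65 (adjusted p = 0.00194) and Errfi1 by 1.35 (adjusted p = 0.00125), and in TG HDM both overlapped the WT HDM libraries, Angptl4 at 31.7 and 34.1 CPM and Errfi1 at 109 and 144 CPM. Both were called higher in TG PBS, and the list was drawn up with earlier results known. The calls of Angptl4 and Errfi1 are therefore not independent of that choice. Scnn1a, the alpha subunit of the epithelial sodium channel that Sgk1 acts on, fell by 1.28 (adjusted p = 0.00329). The stress kinase gene Map3k6 fell by 1.65 (adjusted p = 0.0245) and Cdkn1c, which encodes the cell cycle inhibitor p57, by 1.44 (adjusted p = 0.0458). Without the second TG PBS library none of the 29 passed, and without the first 2 did. The difference of the HDM effects was called for 1 of the 30 genes, Angptl4, at −1.50 (adjusted p = 0.0478, edgeR), a count near the background of 1.76% of all genes called. That call also draws on the high values of Angptl4 in TG PBS.

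**Figure D4:**
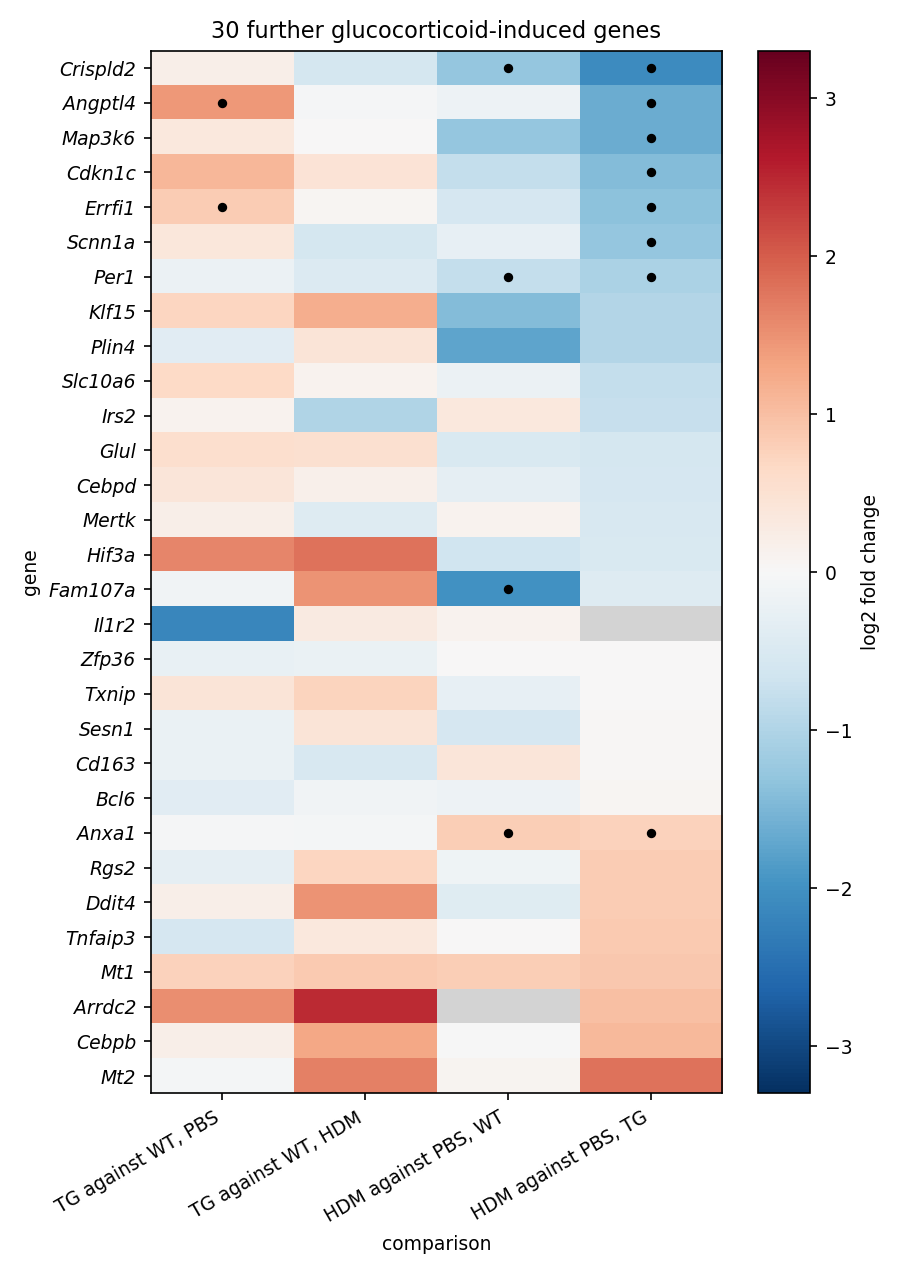
Log2 fold change (color) of 30 further glucocorticoid-induced genes in 4 comparisons, ordered by the HDM difference in TG. Black dots mark an adjusted p under 0.05, grey cells were not tested because of low counts, and the genotype columns are a description. Of the dots in the HDM columns, those of Anxa1 are the ones above 0.

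The steps before the receptor binds DNA were covered by 12 genes for hormone activation, receptor chaperones and cofactors. Hsd11b1, the enzyme that regenerates active hormone inside cells, had 90.9 and 96.6 CPM in WT PBS, 48.0 and 44.2 CPM in WT HDM, 107 and 91.6 CPM in TG PBS, and 103 and 97.6 CPM in TG HDM. The WT HDM libraries were the low ones, and the TG PBS libraries overlapped those of both WT PBS and TG HDM. Its HDM difference was −1.02 ± 0.20 on the log2 scale in WT (adjusted p = 0.00586, edgeR) and 0.04 ± 0.22 in TG (adjusted p = 0.942), and the difference of the 2 effects, 1.04 ± 0.29, did not pass the test (adjusted p = 0.0817). Between TG HDM and WT HDM it was 1.16 ± 0.24 higher and was called, as a description. Hsd11b1 was the only 1 of the 12 called in WT with HDM, a share near the 6.74% of all genes called.

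In TG with HDM, Ncor1, a corepressor that nuclear receptors recruit, fell from 668 and 707 CPM to 423 and 452 CPM, by 0.63 on the log2 scale (adjusted p = 0.0265, edgeR). Across all genes, longer transcripts had lower HDM differences in TG, with a Spearman correlation of −0.331 between length and log2 fold change over 14351 genes, and its part in the fall of Ncor1 was not tested. The chaperone genes Hsp90aa1, Hsp90ab1, Fkbp4, Ptges3 and Stip1 and the mineralocorticoid receptor gene Nr3c2 passed in none of the tests of HDM.

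To ask which genes followed the pattern of Tsc22d3, the log2 CPM of 11802 genes was correlated with that of Tsc22d3 over the 8 libraries, as a description without a p. The points share pools, depth and treatment, and a gene with a step between the genotypes scores high by that alone. The most alike was Anxa5, annexin A5, with a Pearson r of 0.994, followed by Serinc3 (0.961), Txnip (0.961), Flrt2 (0.951), Zcchc10 (0.950), Cwc22 (0.950), Plac9b (0.945), Cfdp1 (0.941), Pxdc1 (0.938) and Cyren (0.936). By Spearman correlation Anxa5 stayed first and Txnip and Pxdc1 stood at rank 8, while the others named stood at ranks 24 (Cfdp1) to 183 (Plac9b). Anxa5 ran from 117 to 147 CPM in the WT libraries and from 174 to 189 CPM in the TG libraries. Flrt2, a cell adhesion protein, ran from 21.3 to 30.8 CPM in the WT libraries and from 239 to 332 CPM in the TG libraries, a far larger step than that of Tsc22d3. Txnip, an inhibitor of thioredoxin that was also among the 30 further genes, had 222 to 276 CPM in the WT libraries and 321 to 415 CPM in the TG libraries.

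The other 9 genes of the set stood far down this order. By Pearson r, Sgk1 was nearest to Tsc22d3, with 0.62 at rank 774, and Nfkbia came next with 0.52 at rank 1386. Fkbp5 had 0.40, Pdk4 0.36, Zbtb16 0.33, Nr3c1 0.29, Klf9 0.26 and Dusp1 0.17, and Cdkn1a was last with 0.04 at rank 5186. The order was not the same by Spearman correlation, where Pdk4 was nearest (0.60, rank 837). Nfkbia (0.55, rank 1069) and Sgk1 (0.50, rank 1342) came next, and Cdkn1a was again last. Sgk1 and Nfkbia, like Tsc22d3, had their highest mean in TG HDM, whereas the other 7 had theirs in TG PBS.

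**Figure D5:**
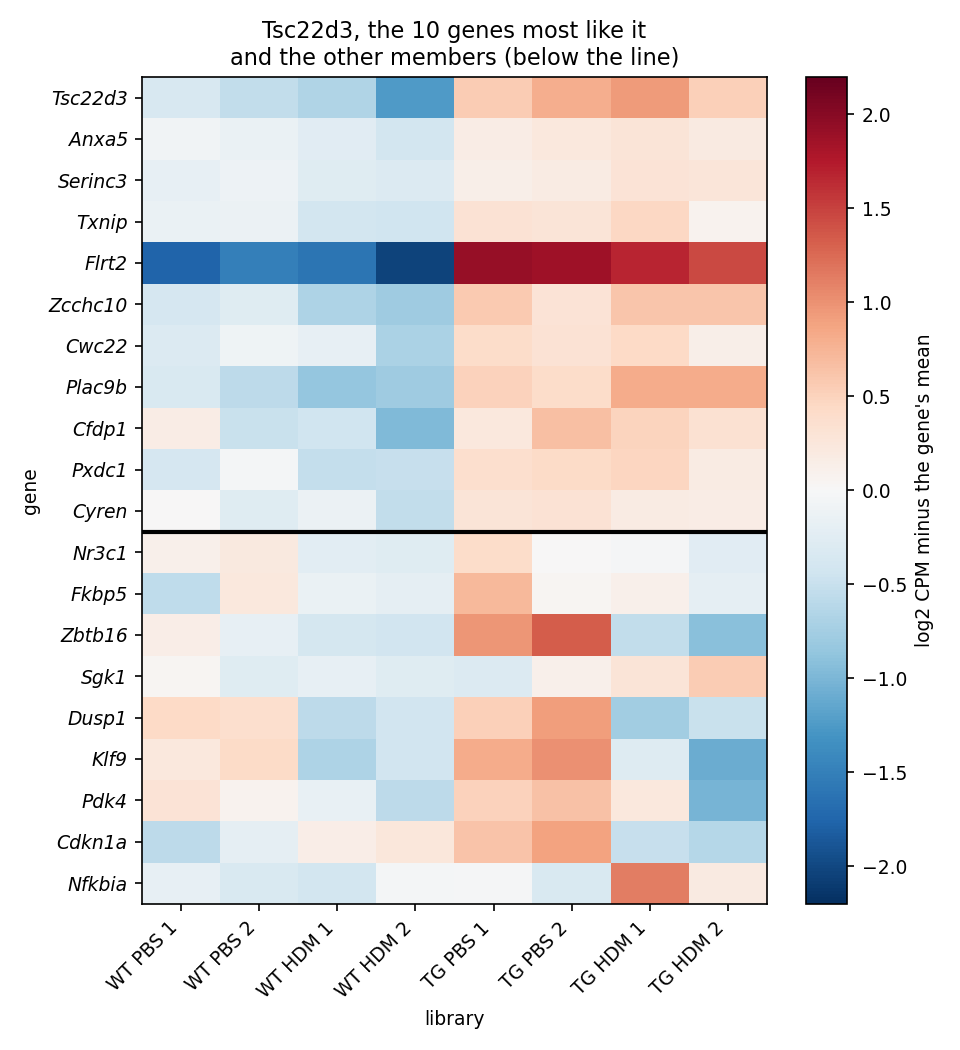
Log2 CPM of each gene minus its mean over the 8 libraries (color), for Tsc22d3, the 10 genes most like it and, below the line, the other 9 genes of the set. Above the line the TG libraries are above each gene's mean and the WT libraries mostly below it, with Cfdp1 and Cyren in the first WT PBS library as exceptions, while below the line the second TG HDM library is low for Zbtb16, Klf9 and Pdk4 and the TG PBS libraries are high for Zbtb16 and Cdkn1a.

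Levels of different genes were compared per kilobase of transcript, as means over the 8 libraries. The study counted reads in coding regions, so that the order by coding length, given last, is the one that matches the counts. Dusp1 was highest at 174 CPM per kb, followed by Sgk1 at 47.5, Tsc22d3 at 36.1, Nfkbia at 34.5, Cdkn1a at 28.6, Nr3c1 at 27.5 and Klf9 at 26.7. Zbtb16 at 12.1, Pdk4 at 8.05 and Fkbp5 at 4.81 CPM per kb were the lowest. With the coding length in place of the transcript length, Dusp1 stayed first and these 3 stayed last, Tsc22d3 moved to rank 2, Klf9 to 3, Cdkn1a to 4, Sgk1 to 5 and Nfkbia to 7.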

How the data were processed

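Lung RNA was pooled by the study from 4 mice per group, amplified and sequenced as 2 libraries per pool, and nothing says that the 2 libraries are more than technical repeats. The authors deposited raw counts of reads per gene, made with bcl2fastq, CASAVA 1.8 and TopHat against mm10 and counted in coding regions in R. Whether counting used strand is not given in the sources used here.

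Counts were tested with edgeR 4.0.16 (quasi-likelihood test, TMM, filterByExpr with a count minimum of 10, Benjamini-Hochberg adjustment over all genes tested, threshold 0.05) in R 4.3.3, on the 4 libraries of each comparison and on all 8 for the difference of the HDM effects. All 10 genes passed the filter in every comparison. CPM used TMM over 8 libraries. Entrez identifiers were named from RefSeq (GRCm38.p6; 23372 of 23469), and 21145 had a GENCODE M21 transcript length. The rRNA precursor row held 8.58 to 21.8% of the counts and stayed in library sizes. Code was tested on simulated data. The alternatives were other size factors, DESeq2 1.42.0, no filter, a replicate block, library sizes without rRNA and haemoglobin genes, an offset for gene length, all 8 libraries, and each library left out.

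The members and lists were chosen with earlier results of these data known. Named were all members, listed genes past the threshold in at least 1 comparison, and the 10 genes of highest Pearson correlation with Tsc22d3 (mean of at least 5 CPM). One listed gene past the threshold is not reported here.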

Additional observations from a re-analysis of the deposited data

Results flagged for a closer look

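For 2 of the 10 genes the HDM difference in TG and that in WT differed by a test of the difference itself (edgeR, all 8 libraries). Each group is a single RNA pool, and the PBS and HDM pools differ in sex marker genes. Effects of HDM, sex and pool therefore cannot be told apart. The test also draws on the genotype differences, which are a description, and both genes were high in TG PBS. For Cdkn1a the difference was −1.918 on the log2 scale (adjusted p = 0.0049), with WT HDM above WT PBS and TG HDM below TG PBS. For Zbtb16 it was −1.50 (adjusted p = 0.0334), with HDM below PBS in both genotypes and by more in TG. With the offset for gene length Zbtb16 did not pass (adjusted p = 0.0757, edgeR), and its value ran from −1.70 to −1.31 with one library left out. Groups of 2 libraries are too small for a test of single libraries that stand apart.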

How the results depend on the processing

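Of the tested log2 fold changes of the 10 genes, with one library left out 127 kept their direction and their side of the threshold, 12 lost a call, 3 gained one and 10 changed sign, and under other settings 188 held, 1 lost a call, 3 gained one (Nfkbia with HDM in TG) and 2 changed sign. Of the genotype values, which are a description, 5 of 80 lost a call, 4 gained one and 12 changed sign with one library left out, and 3 of 140 lost a call, 4 gained one and 1 changed sign under other settings. The causes were not tested.

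Between TG PBS and WT PBS, DESeq2 and the fit with no low-count filter each called 4 of the 30 further genes (main value 2). Between TG HDM and WT HDM each called 2 of the 10 genes (1), and of the 30 further genes DESeq2 called 2, the fit with no filter 3 and that on all 8 libraries 1 (0). With HDM in WT, DESeq2 called 8 and no filter 9 of the further genes (4). With the offset for gene length, 1 of the 10 genes was called in the difference of the HDM effects (2), where Zbtb16 had an adjusted p of 0.0757, and the sign changed for Nfkbia with HDM in WT (−0.092) and for Tsc22d3 with HDM in TG (−0.24).

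With each library left out in turn, the count among the 10 genes ran from 1 to 5 between TG PBS and WT PBS, 0 to 2 between TG HDM and WT HDM, 1 to 2 with HDM in WT, 0 to 5 with HDM in TG and 1 to 3 in the difference of the HDM effects. For the 30 further genes it ran from 2 to 5, 0 to 8, 1 to 7 and 0 to 12 in the first 4 of these. The tested log2 fold changes whose sign changed were those with HDM in WT of Fkbp5 (−0.42 to 0.38), Sgk1 (−0.27 to 0.039) and Nfkbia (−0.17 to 0.21), that with HDM in TG of Tsc22d3 (−0.15 to 0.27), and the difference of the HDM effects of Nr3c1 (−0.13 to 0.27) and Pdk4 (−1.06 to 0.21). Over all settings the genotype values changed sign for Nr3c1 (−0.16 to 0.25), Sgk1 (−0.19 to 0.23) and Nfkbia (−0.074 to 0.23) with PBS, and for Klf9 (−0.54 to 0.32), Pdk4 (−0.66 to 0.65), Dusp1 (−0.24 to 0.035) and Fkbp5 (−0.0055 to 0.34) with HDM.

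The count over all genes was 98 between TG PBS and WT PBS (46 to 306 under other settings) and 370 between TG HDM and WT HDM (164 to 1055, and 6 to 1595 with a library left out). With HDM it was 1020 in WT (703 to 1588) and 2079 in TG (1436 to 2834, and 277 to 2676 with a library left out), and in the difference of the HDM effects 279 (220 to 680). With the offset for gene length the genes called higher were 57 of 106 between the PBS groups (42 of 98 without it), 90 of 164 between the HDM groups (279 of 370), 724 of 1436 with HDM in TG (1272 of 2079) and 87 of 220 in the difference of the HDM effects (167 of 279).

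The replicate numbers did not pair the libraries: deviations of same-numbered libraries correlated at −0.021 to 0.032 over 15868 genes. With the replicate block, 0 of the 10 genes were called between TG PBS and WT PBS (3 without it), and 1 of the 30 further genes between TG HDM and WT HDM (0 without it).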
